A study of Mus musculus with 6 samples.

Results

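Bronchioalveolar stem cells (BASC) were compared with alveolar type 2 (AT2) cells of the mouse lung by bulk RNA sequencing, to describe which genes part cells carrying 2 airway and alveolar reporters from cells sorted on the alveolar reporter. BASC were the cells positive for both CCSP-mCherry, a reporter of the secretoglobin gene Scgb1a1, and SPC-YFP, a reporter of the surfactant protein gene Sftpc. SPC-YFP positive cells made up the AT2 sort, and CCSP-mCherry positive cells the Club cells, the third population of the study. The comparison used 4 of the 6 samples, 2 of BASC and 2 of AT2 cells. It covered 17721 of the 22239 genes in the deposited table, those with a normalised read count of at least 10 in at least 2 of the 6 samples. The Club samples helped to set which genes were tested and the estimate of the spread, and their levels are given for reference. All samples came from mice aged 8 weeks, and all lung homogenates had been depleted of cells bearing CD31, an endothelial surface protein, or CD45, a leukocyte surface protein. The labels describe the reporters as endogenous and name no strain or further allele. They do not say whether mCherry positive cells were kept out of the AT2 sort, nor that samples of a group came from separate animals. The p-values therefore measure only the spread between these samples. Fewer cells with a transcript and less of it per cell cannot be told apart in such bulk RNA.

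BASC lie where the terminal bronchioles open into the alveoli and express genes of both neighbouring epithelia. Club cells line the bronchioles, secrete Scgb1a1 protein and mucins, and detoxify inhaled compounds with cytochromes P450, glutathione transferases and aldehyde dehydrogenases. AT2 cells make surfactant lipid and protein, rest on a basement membrane and, unlike most epithelial cells, carry MHC class II molecules that present peptides to CD4+ T cells.

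By the test over all 6 samples, more genes were higher than lower in BASC. With limma on log2(value + 1) and an adjusted p under 0.05, 98 genes were higher in BASC and 14 were lower. These were 0.553% and 0.079% of genes tested, together 0.632%. The split was less uneven in a fit of the 4 samples alone, at 60 higher and 45 lower. By size and agreement alone, 224 genes (1.26%) had both BASC samples at least 2-fold above both AT2 samples with a BASC mean of at least 100. In the other direction 170 genes (0.959%) met the mirrored rule, and such genes are called parted below. Both rules were met by 73 of the higher and 9 of the lower genes. Groups without any overlap were common, with 3246 genes (18.3%) higher in both BASC samples and 3342 (18.9%) lower, and the median log2 fold change of all genes was 0.00. Genes called higher mostly agreed closely between the BASC samples, which the test favours, so this describes the calls and does not back them. The ratio of the 2 BASC values, each plus 1, had a median of 1.24, was under 1.5 in 68 of the 98 and over 2 in 10, with the highest, 4.25, at Sema3a. All 14 genes called lower had a ratio under 1.5 in BASC, with Cd74 highest at 1.41. The AT2 samples were both at 0 for 25 of the 98 higher genes.

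**Figure D1:**
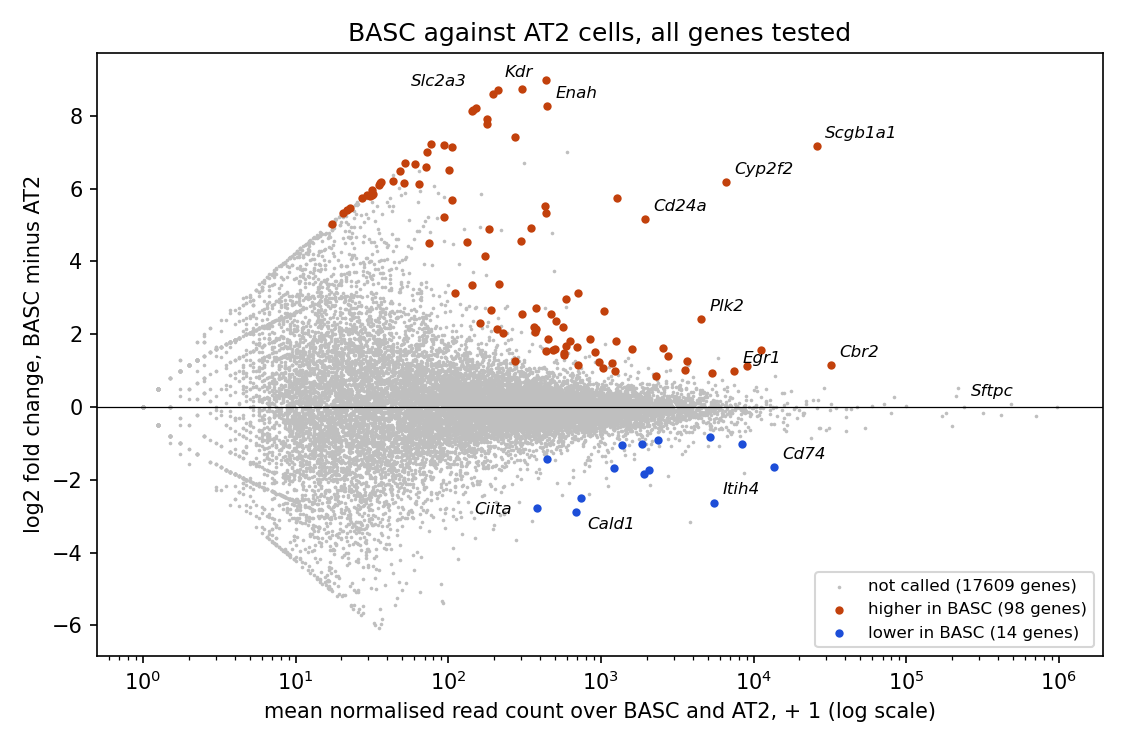
Log2 fold change of BASC over AT2 cells for each of the 17721 genes tested (vertical axis) against the mean normalised read count over the 4 samples plus 1 (log scale), with the 98 genes higher and the 14 lower in BASC in colour. The higher genes reach further from 0 than the lower ones, and many of them sit on the upper edge, where the AT2 samples are at 0.

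These counts needed both BASC samples. With BASC replicate 1 left out limma called 3 genes higher and 0 lower, and with BASC replicate 2 left out 4 higher and 0 lower. Both fits take the spread of the lone BASC sample from the AT2 and Club samples. Scgb1a1, Cyp2f2 and Cd24a were called in both of these fits and Mgat3 without BASC replicate 2, so every other call named below was lost when either BASC sample was left out, except Slc2a3, which then failed the filter on low values and was not tested. Without AT2 replicate 1, 59 of the 98 genes were still called higher and 1 of the 14 (Heatr1) lower, and without AT2 replicate 2 the numbers were 49 and 2 (Heatr1 and Cald1). A fit of the 4 samples alone called 60 higher and 45 lower. Without a trend of the spread on the level, 44 of the 98 were called higher and 0 of the 14 lower. Before adjustment, 1257 genes on the higher and 1079 on the lower side had a limma p under 0.05. The reads over the genes of the table, estimated from the steps between low values, numbered 10122640 and 14720992 in BASC and 18205636 and 13174814 in AT2 cells.

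Marker genes were measured as a check of the cell labels. Sftpc had normalised read counts of 290809 and 307458 in BASC and 301267 and 373742 in AT2 cells, so the groups overlapped (log2 fold change -0.17 ± 0.12, SE, limma adjusted p = 0.635). Scgb1a1 stood at 43993 and 58791 in BASC, at 413 and 302 in AT2 cells and at 751642 and 760675 in Club cells, a difference that the sort selected for. Of 32 Club cell markers tested, 12 (37.5%) were called higher in BASC and none lower, beside 0.553% and 0.079% of all genes. At an unadjusted limma p under 0.05, 22 were higher and 0 lower, beside 1257 and 1079 of all 17721 genes. Values of the 32 markers summed to 143005 and 166861 in BASC and to 41583 and 45369 in AT2 cells. In Club cells they summed to 1486269 and 1435248. These counts and sums were not repeated with Scgb1a1, the gene of the sort, set aside. Upk3a was at 0 in all BASC and AT2 samples. Of 29 AT2 markers limma called none (11 lower and 1 higher before adjustment, at p under 0.05). The 29 markers summed to 1813394 and 1661042 in BASC and 1937494 and 1875555 in AT2 cells. In Club cells, which also enter the spread of the test, they summed to 133267 and 157446. Without overlap, 19 of them lay lower and 2 higher, beside 18.9% and 18.3% of all genes. Their median log2 fold change was -0.25, with 24 negative and 5 positive. Of 5 leukocyte markers tested from a list of 23, and of 6 endothelial markers from a list of 13, Kdr was the only gene called. The leukocyte sums were 711 and 1103 in BASC and 681 and 960 in AT2 cells.

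Secreted proteins of the bronchiolar lining were among the genes higher in BASC. Scgb3a2, a secretoglobin, stood at 510 and 1175 in BASC, at 12 and 21 in AT2 cells and at 59744 and 57857 in Club cells. Both BASC samples lay above both AT2 samples, 51.1-fold by the means (log2 fold change 5.52 ± 0.40, SE, limma adjusted p = 0.00266), and far under the Club samples. Muc5b, a gel-forming mucin of the airway, had 334 and 377 in BASC against 7 and 17 in AT2 cells (29.6-fold, adjusted p = 0.00266). Its level in BASC was 0.532% of that in Club cells, the lowest share of any gene called higher. Muc5ac, the other gel-forming airway mucin, had 25 and 40 in BASC and none in AT2 cells (at least 11.8-fold, adjusted p = 0.0444). With Creb3l1 they were the 3 called (30%) of 10 goblet cell markers tested, beside 0.553% of all genes called higher. The 10 markers summed to 2199 and 2403 in BASC, to 1020 and 808 in AT2 cells and to 87547 and 82906 in Club cells. The part of goblet cells was not tested. Pigr, the receptor that carries immunoglobulin A to the lumen, had 260 and 395 against 60 and 41 (6.49-fold, adjusted p = 0.0103). Hp, the haemoglobin-binding acute phase protein haptoglobin, stood out by its high level in AT2 cells, at 6055 and 5337, with 13081 and 11719 in BASC (2.18-fold, adjusted p = 0.0161). Wfdc1, which encodes a small protein of the whey acidic protein fold, had 36 and 86 in BASC and 0 in both AT2 samples (at least 22.2-fold, adjusted p = 0.0414).

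Enzymes that metabolise foreign compounds were a large group among the higher genes. Of 62 such genes tested, 11 were called higher in BASC and none lower (24 and 0 at an unadjusted p under 0.05, limma), beside 0.553% of all genes. Their median log2 fold change was 0.61, and 30 lay higher and 5 lower without overlap, beside 18.3% and 18.9% of all genes. The terms of the deposited annotation were counted over the same calls and are no separate evidence. They held 7 of 42 genes of xenobiotic metabolism by cytochrome P450 and 4 of 50 of glutathione metabolism called higher, and none lower. Cyp2f2, the P450 that activates naphthalene in Club cells, had 11815 and 14384 in BASC with 173 and 186 in AT2 cells (73.0-fold, log2 fold change 6.18 ± 0.12, SE, limma adjusted p = 3.82e-06). The AT2 values lay well above those that 3 reads would give, 2.29 and 3.21. Aldh1a1, which makes retinoic acid from retinaldehyde, had 675 and 1027 against 32 and 12 (38.7-fold, adjusted p = 0.00372). Fmo2, the flavin monooxygenase of lung, had 1523 and 2086 against 341 and 241 (6.20-fold, adjusted p = 0.00443). Aox3, an aldehyde oxidase, was high in both, at 15092 and 18336 in BASC and 6231 and 5036 in AT2 cells (2.97-fold, adjusted p = 0.00592), and reached 14446 and 15127 in Club cells.

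The glutathione transferases called higher were Gsto1, Gsta4, Gstm1 and Gsta3. Gsto1 had 186 and 224 in BASC against 7 and 1 in AT2 cells (51.3-fold, adjusted p = 0.0141). The other three differed by 2.42-fold for Gsta3 to 3.10-fold for Gstm1, and reads of such close paralogs can be shared. Ephx1, the microsomal epoxide hydrolase, had 886 and 1062 against 404 and 466 (2.24-fold, adjusted p = 0.0371), and the carbonyl reductase gene Cbr2 had 41810 and 46857 against 18423 and 21448 (2.22-fold, adjusted p = 0.0106). Ahr, the receptor that switches on several of these enzymes when it binds aryl hydrocarbons, was higher as well, at 809 and 867 against 321 and 280 (2.79-fold, adjusted p = 0.0203). Cyp1b1, a known target of Ahr, was parted but not called, with 572 and 1256 in BASC against 73 and 12 in AT2 cells (adjusted p = 0.0627). With either BASC sample left out, 1 of the 62 genes, Cyp2f2, was called, and 1 without a trend of the spread.

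Of 48 transcription factors of lung epithelium tested, Sox2 and Creb3l1 were called higher and none lower, 4.17% beside 0.553% of all genes called higher. Sox2, the factor of the conducting airway, had 438 and 343 in BASC and 0 in both AT2 samples, at least 142-fold (adjusted p = 0.000934). Creb3l1, a membrane-bound factor of secretory cells, had 1649 and 1669 in BASC with 799 and 635 in AT2 cells (2.31-fold, adjusted p = 0.0272), beside 1625 and 1630 in Club cells. Rarb, a retinoic acid receptor, and Six4 were parted without a call, with 225 and 400 for Rarb in BASC against 0 and 26 in AT2 cells (adjusted p = 0.131). Nkx2-1, which specifies lung epithelium, had 6583 and 6450 in BASC with 7181 and 6482 in AT2 cells (log2 fold change -0.07 ± 0.11, SE, limma adjusted p = 0.844). Irx1 had 6125 and 5604 against 9253 and 11394, without overlap (adjusted p = 0.0735).

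Other regulators outside that list were also called higher. Tbx1, a T-box factor, had 828 and 869 in BASC against 127 and 211 in AT2 cells (5.02-fold, adjusted p = 0.0156). Mycl, of the Myc family, had 117 and 169 against 4 and 7 (26.0-fold, adjusted p = 0.0141). Hes1, a repressor that Notch signalling induces, had 1667 and 1599 against 816 and 844 (1.97-fold, adjusted p = 0.0283), and was the only gene called among 22 of the Notch pathway, whose median log2 fold change was 0.07. Rbm24, an RNA-binding regulator of splicing, had 80 and 60 in BASC and 0 in both AT2 samples, close to the 68 and 76 of Club cells. Plk2, a kinase of the Polo family, had 7410 and 7851 against 1288 and 1585 (5.31-fold, log2 fold change 2.42 ± 0.13, SE, limma adjusted p = 0.0007).

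Egr1 represented the immediate-early genes, which many stimuli induce within minutes. Egr1 stood at 10021 and 9739 in BASC, at 4824 and 5121 in AT2 cells and at 3984 and 4517 in Club cells (1.99-fold over AT2, adjusted p = 0.0141). It was the only one of 36 immediate-early genes called. In the list as a whole, 21 genes lay higher and 3 lower without overlap, beside 18.3% and 18.9% of all genes. The list had 30 genes with a positive difference and a median log2 fold change of 0.42. Its values summed to 138264 and 153114 in BASC, to 89614 and 116423 in AT2 cells and to 101890 and 103477 in Club cells. Fos, named after its values were seen, had 17128 and 18231 against 8174 and 11781 (adjusted p = 0.0993). AT2 replicate 1 was the lower AT2 sample in the sum and for Fos. Without it the median was 0.33 with 24 of 36 positive, and Egr1 was not called.

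**Figure D2:**
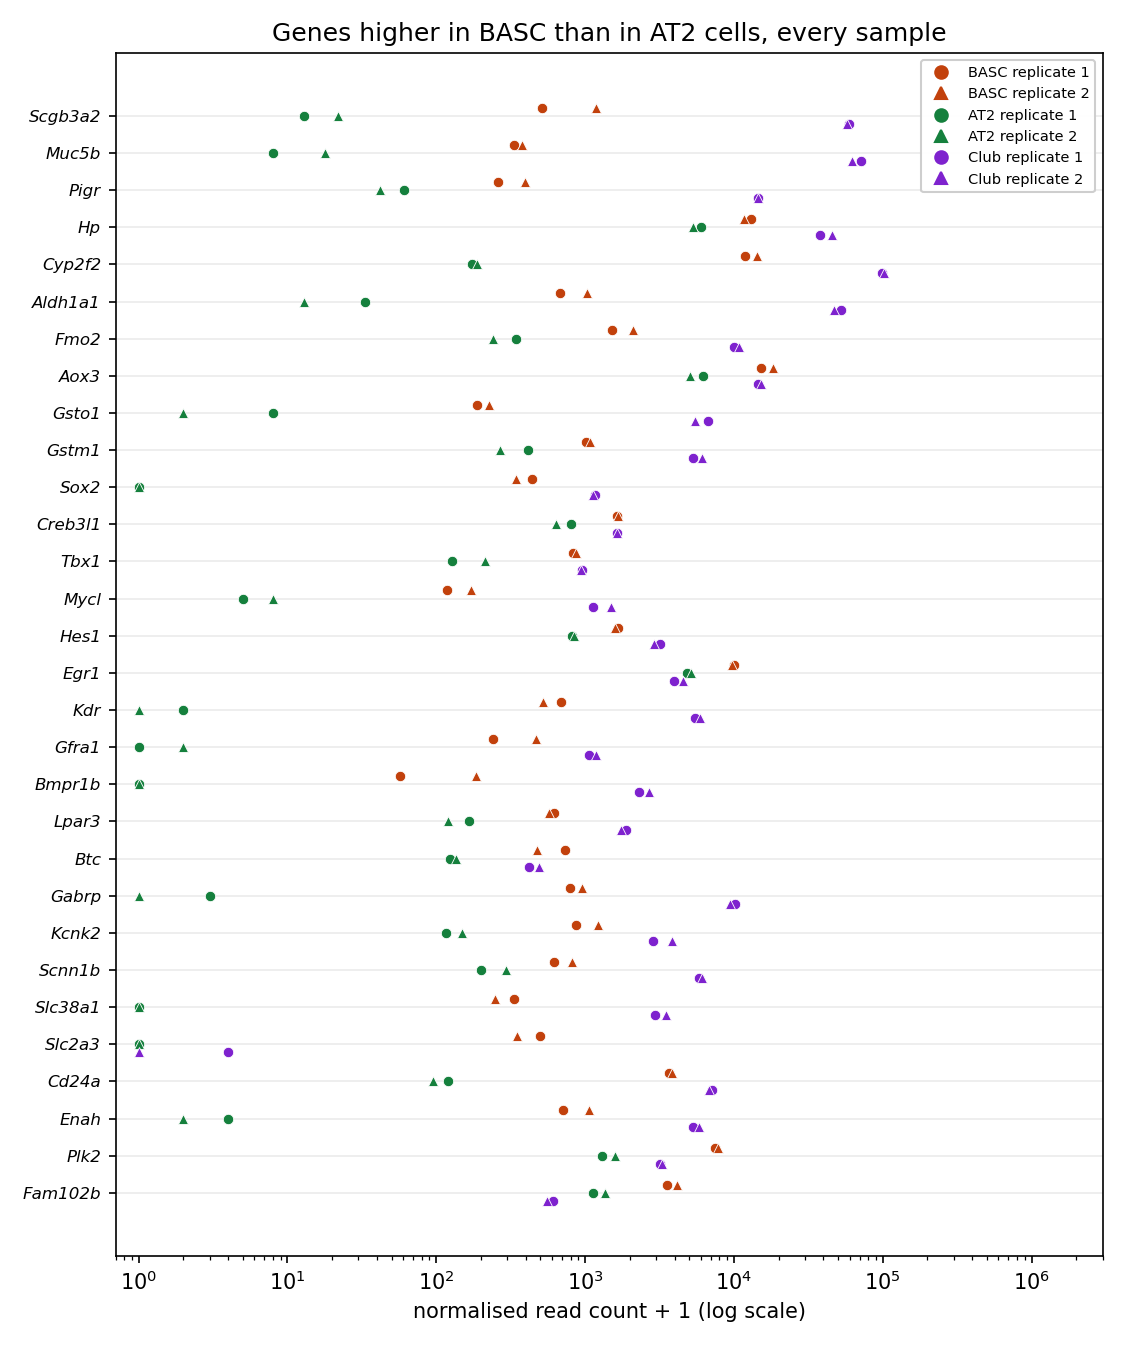
Normalised read count plus 1 (log scale) of 30 genes called higher in BASC, with a point for each of the 6 samples, coloured by population and shaped by replicate. The BASC points lie apart from the AT2 points in every row, while their place relative to the Club points runs from far below (Muc5b) to above (Fam102b).

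Growth factor receptors and ligands made up another part of the higher genes. Kdr, the receptor for VEGF, stood at 689 and 517 in BASC, at 1 and 0 in AT2 cells and at 5510 and 5892 in Club cells, and was the only one of 36 receptor tyrosine kinases called (adjusted p = 0.000502). The 6 endothelial markers tested summed to 764 and 616 in BASC, most of it Kdr, and to 76 and 83 in AT2 cells. Pecam1, named after its values were seen, had 9 and 15 in BASC with 27 and 7 in AT2 cells. Gfra1, the co-receptor for GDNF, had 241 and 468 in BASC against 0 and 1 in AT2 cells (adjusted p = 0.00372). Gdnf, its ligand, went the other way without a call, at 169 and 164 against 596 and 566 (limma adjusted p = 0.314). It was at 0 in both Club samples, which also enter the spread. Ret, the signalling partner, had 379 and 816 in BASC against 563 and 381 in AT2 cells. Bmpr1b, a type I receptor for bone morphogenetic proteins, had 56 and 183 in BASC and 0 in both AT2 samples (at least 43.5-fold, adjusted p = 0.0135). Btc, the EGF family ligand betacellulin, had 729 and 475 against 123 and 134 (4.69-fold, adjusted p = 0.0275), and Lrig1, a restraint on EGF receptors, had 1405 and 1325 against 504 and 666 (2.33-fold, adjusted p = 0.0378).

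Receptors coupled to G proteins included Lpar3 and Cckar. Lpar3, a receptor for lysophosphatidic acid, had 616 and 568 in BASC against 165 and 119 in AT2 cells (4.17-fold, adjusted p = 0.0135). Cckar, a cholecystokinin receptor, had 2481 and 2446 in BASC with 133 and 15 in the AT2 samples, which differed more from each other than the BASC samples did (33.3-fold, adjusted p = 0.0378). Plpp3, a surface phosphatase that degrades lysophosphatidic acid, had 393 and 745 against 37 and 13 (22.8-fold, adjusted p = 0.0135). Sema3a, a secreted guidance cue, had 70 and 301 in BASC and 0 in both AT2 samples, the widest spread between BASC samples of any gene called.

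Of 44 ion channel genes, 4 were called higher and none lower (9.09%). Of 265 solute carriers, 4 were called higher and 1 lower (1.89%), beside 0.632% of all genes called in either direction. Gabrp, which encodes a GABA-A receptor subunit, had 789 and 954 in BASC against 2 and 0 in AT2 cells (adjusted p = 0.0007). Kcnk2, a potassium channel opened by stretch, had 861 and 1222 against 115 and 147 (7.95-fold, adjusted p = 0.00491). Scnn1b, the beta subunit of the epithelial sodium channel, had 618 and 821 against 200 and 292 (2.92-fold, adjusted p = 0.0414), while its partner Scnn1a had 5382 and 4696 against 4082 and 4384 (adjusted p = 0.474) and Scnn1g 137 and 188 against 134 and 183 (adjusted p = 0.983). Wnk4, a kinase that regulates ion transport, had 710 and 593 against 189 and 257 (2.92-fold, adjusted p = 0.0392). Scnn1a and Scnn1g were named after their values were seen.

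The solute carriers called higher served different substrates. Slc38a1, a glutamine transporter, had 332 and 248 in BASC and 0 in both AT2 samples (at least 105-fold, adjusted p = 0.000702). Slc25a37, the mitochondrial iron importer mitoferrin, had 638 and 719 against 21 and 22 (31.6-fold, adjusted p = 0.000702). Slc2a3, a glucose transporter, had 494 and 349 in BASC, 0 in both AT2 samples and 3 and 0 in Club cells (at least 153-fold over AT2). It passed the filter on low values through the BASC samples alone, so it had to differ, and its values are given as a description. Slc2a3 stays in the counts of 98 genes and of 4 solute carriers called higher. Slc6a6, the taurine transporter, was lower in BASC, at 1100 and 1336 against 2326 and 2653 (2.04-fold, adjusted p = 0.0468), with 1487 and 1675 in Club cells. The solute carriers as a family had a median log2 fold change of 0.00, the same as all genes.

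Genes of cell shape and surface were also called. Cd24a, a small surface glycoprotein used to sort airway cells, had 3685 and 3858 in BASC with 118 and 94 in AT2 cells (35.6-fold, log2 fold change 5.15 ± 0.16, SE, limma adjusted p = 2.57e-05). Enah, which lengthens actin filaments, had 710 and 1066 against 3 and 1 (adjusted p = 0.000502). Synpo, an actin-bundling protein, had 1237 and 1422 against 451 and 290 (3.59-fold, adjusted p = 0.0194), and Cnn3, a calponin, had 90 and 35 in BASC and 0 in both AT2 samples (adjusted p = 0.0417). Cald1, the actin-binding caldesmon, was lower in BASC, at 174 and 140 against 1600 and 848 (7.80-fold, adjusted p = 0.0233). The 53 actin regulators thus held calls in both directions, 2 higher and 1 lower, with a median log2 fold change of -0.03. Together these calls were 5.66%, beside 0.632% of all genes called in either direction. Mgat3, which adds the bisecting sugar of N-glycans, had 371 and 235 in BASC and 0 in both AT2 samples (at least 110-fold, adjusted p = 0.000611), the only one of 46 glycosyltransferases called. Keratins, the intermediate filaments of epithelium, gave no call among 10 (limma, 3 higher and 0 lower at an unadjusted p under 0.05). Krt18 had 2685 and 2844 against 1898 and 1779 (adjusted p = 0.119).

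Some genes of the cilium were called, and the ciliated cell markers leaned to the higher side without a call. Gmnc, which starts the making of multiple cilia, had 76 and 210 in BASC and 0 in both AT2 samples (at least 52.0-fold, adjusted p = 0.022). Spag17 and Ccdc170 were also at 0 in AT2 cells, with 44 and 39 and with 59 and 46 in BASC (adjusted p = 0.0417 and 0.0433). Cfap43 and Cfap44, parts of the motile cilium, were parted without a call. Of 21 ciliated cell markers limma called none (4 higher and 0 lower at an unadjusted p under 0.05), and they summed to 1612 and 1309 in BASC, to 1082 and 899 in AT2 cells and to 13810 and 13318 in Club cells. Their median log2 fold change was 1.66, with 17 positive and 3 negative. Without overlap, 6 lay higher and 0 lower, beside 18.3% and 18.9% of all genes. Foxj1, the master factor of motile cilia, had 115 and 100 in BASC with 96 and 40 in AT2 cells, and Sntn was at 0 in all 4 samples. The part of ciliated cells in these differences was not tested.

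The higher genes kept no single proportion to their level in Club cells. For the 97 of them with a Club mean of at least 10, the BASC mean ran from 0.532% of the Club mean (Muc5b) through a median of 31.4% to 664% (Fam102b). Scgb3a2 stood at 1.43%, Aldh1a1 at 1.72%, and Creb3l1 at 102%. In 12 of the 98 genes the BASC mean lay above the Club mean, and in 6 both BASC samples lay above both Club samples. Fam102b, at 3557 and 4153 in BASC, at 1136 and 1369 in AT2 cells and at 607 and 555 in Club cells (3.08-fold over AT2, adjusted p = 0.0098) was one of these, and the others were Plk2, Egr1, Pkib, Creb3l1 and Slc2a3. BASC and AT2 are each set against the same samples here, and the part of Club cell RNA in the BASC samples was not tested.

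**Figure D3:**
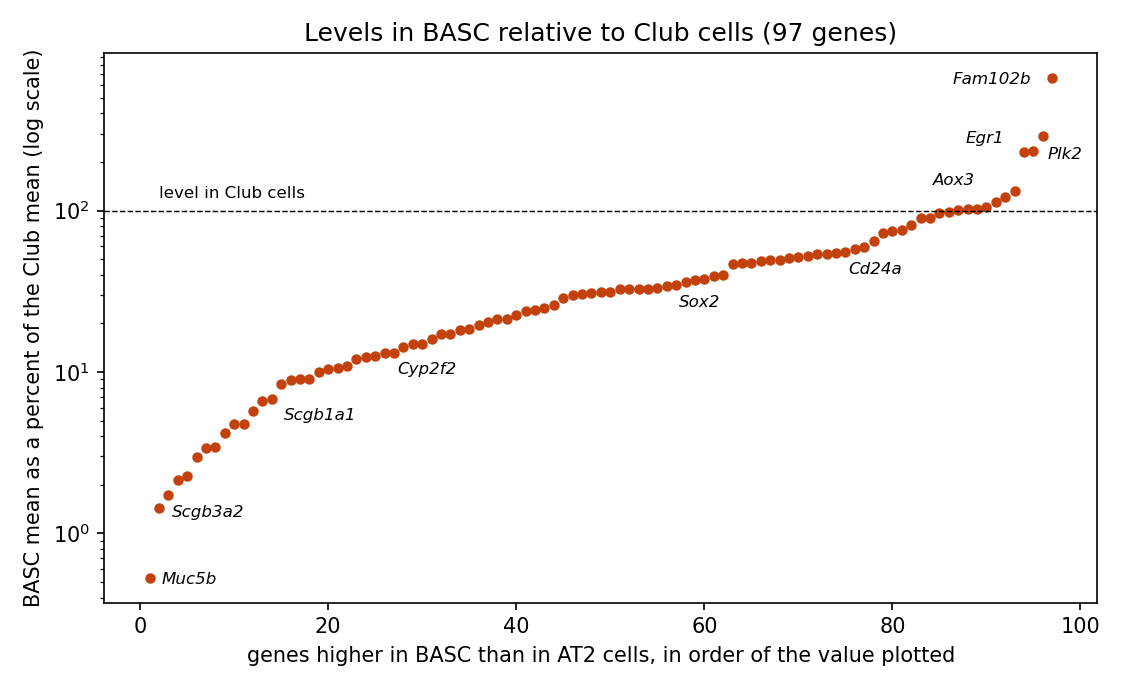
Mean of the BASC samples as a percent of the mean of the Club samples (log scale) for the 97 genes called higher in BASC than in AT2 cells with a Club mean of at least 10, in order of that value, with the Club level as a dashed line. The values run from 0.532% (Muc5b) to 664% (Fam102b), and the median is 31.4%.

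Non-coding RNA added 5 genes to those called higher and none to those called lower, from 4352 tested genes of other types than protein-coding, pseudogenes included. Antisense RNAs gave 3 of 805 (0.373%), long intergenic RNAs 1 of 553 (0.181%) and unclassified transcripts (TEC) 1 of 1106 (0.0904%). Each of these shares lay under the 0.553% of all genes called higher. Each of the 5 lay inside or within 10000 bases of a coding gene that was also called higher. Gm15883 (GRCm38 chr7:27124481-27130674, minus strand) runs antisense inside Cyp2f2 (chr7:27119909-27133660, plus strand). It had 186 and 117 in BASC, 0 in both AT2 samples and 1226 and 1063 in Club cells, which is at least 55.1-fold over AT2 (adjusted p = 0.00592). Of its 1690 exon bases, 274 (16.2%) lie opposite Cyp2f2 exons in GENCODE release M21, all in coding parts of exons 4 and 6. These exons are shown as read on the Cyp2f2 strand, since they are where reads of the gene and its antisense partner could be exchanged. Capitals mark the bases that an exon of Gm15883 covers on the other strand.
Cyp2f2 exon 4, chr7:27124854-27125003: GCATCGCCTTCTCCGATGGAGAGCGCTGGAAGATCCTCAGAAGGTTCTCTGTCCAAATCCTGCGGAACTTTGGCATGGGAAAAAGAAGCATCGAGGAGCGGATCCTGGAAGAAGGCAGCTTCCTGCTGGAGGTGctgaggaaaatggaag
Cyp2f2 exon 6, chr7:27129717-27129893: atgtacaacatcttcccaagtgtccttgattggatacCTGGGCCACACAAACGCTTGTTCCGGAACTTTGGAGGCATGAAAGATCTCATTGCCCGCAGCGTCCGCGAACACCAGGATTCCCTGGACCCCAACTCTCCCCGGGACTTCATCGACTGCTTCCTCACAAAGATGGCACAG

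B430010I23Rik (chr8:41017468-41024216, plus strand) lies antisense inside Mtus1, which encodes a microtubule-associated protein. It had 694 and 926 in BASC against 123 and 151 in AT2 cells (5.91-fold, adjusted p = 0.00592), while Mtus1 had 4069 and 3973 against 1632 and 1405 (2.65-fold, adjusted p = 0.00518). The antisense RNA thus differed by a larger factor than the coding gene, and 612 of its 3270 exon bases (18.7%) lie opposite Mtus1 exons. 4930422M22Rik (chr9:99299007-99304675, minus strand) overlaps the end of Cep70, a centrosome gene, with 24.7% of its span and 27 exon bases. It had 67 and 56 in BASC and 0 in both AT2 samples (at least 22.4-fold, adjusted p = 0.0433), and Cep70 had 798 and 990 against 263 and 292 (3.22-fold, adjusted p = 0.0233). The last pair lie on the strand of their neighbour and share no exon base with it. 2700078F05Rik (chr1:181950132-181953375) lies within Enah and had 55 and 82 in BASC and 0 in both AT2 samples (adjusted p = 0.0358). Gm15675 (chr1:130429781-130437191) lies 1836 bases from Cd55, a brake on complement, and had 363 and 368 in BASC against 82 and 98 in AT2 cells (4.06-fold, adjusted p = 0.0398), with Cd55 at 2395 and 2366 against 992 and 635 (2.93-fold, adjusted p = 0.0272).

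Position beside a higher coding gene was rare among non-coding genes in general. Of the 4352 tested, 46 (1.06%) lay within 10000 bases of a coding gene called higher, and 5 of these 46 were called. Their median log2 fold change was 1.70, against 0.04 for the other non-coding genes, and 38 of the 46 were positive. The strand setting of the counting is not given in the sources used here, so reads of an antisense gene and of the exons opposite it cannot be told apart. The part of unspliced reads from the coding gene was not tested. Sox2ot, which spans Sox2, had 32 and 38 in BASC and 0 in both AT2 samples without a call (adjusted p = 0.0897), and was named after its values were seen.

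**Figure D4:**
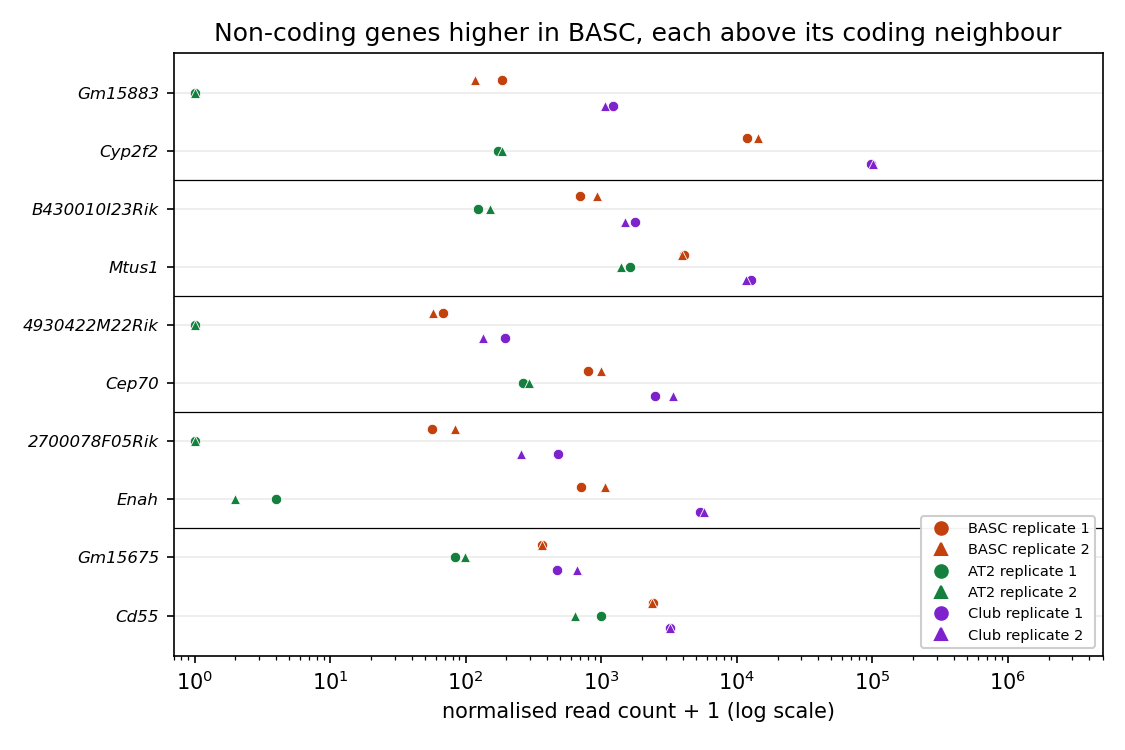
Normalised read count plus 1 (log scale) of the 5 non-coding genes called higher in BASC, each in the row above its coding neighbour, with a point for each of the 6 samples. In all 10 rows both BASC points lie above both AT2 points, and in 3 of the 5 non-coding rows the AT2 points are at 0.

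Further non-coding genes were parted without a call. Gm17024, inside an intron of Ifrd1, had 430 and 519 in BASC against 75 and 171 in AT2 cells (adjusted p = 0.0889). BC039771, on the strand of Rin2, had 394 and 414 against 176 and 162 (adjusted p = 0.098), and Gm26802 had 264 and 217 against 67 and 77 (adjusted p = 0.0779). In the other direction, Gm43775, within Rbm47, had 135 and 106 against 400 and 304 (adjusted p = 0.112), while Rbm47 had 3234 and 2651 against 3042 and 2834 (adjusted p = 1). Small nucleolar RNAs, which guide the modification of ribosomal RNA, had 153 of 203 genes with a positive difference and a median of 0.43, and limma called none (6 higher and 0 lower at an unadjusted p under 0.05). Their sums were 29631 and 35733 in BASC and 17519 and 33680 in AT2 cells, so AT2 replicate 1 stood apart from the other three samples. Without that sample the median was 0.03, with 102 of 197 positive. The small nuclear RNAs of the spliceosome did likewise, with a median of 0.34 over 107 genes and of -0.18 without AT2 replicate 1. No call was made among them (1 higher and 1 lower at an unadjusted p under 0.05, limma).

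Antigen presentation genes stood out among those lower in BASC. Of 12 genes of MHC class II presentation, 2 were called lower (0.079% of all genes were) and 5 were parted lower (0.959%). Without overlap, 9 lay lower, beside 18.9% of all genes. None had a positive difference, and the median log2 fold change was -1.56. Ciita, the transactivator that controls class II transcription, had 99 and 88 in BASC against 511 and 819 in AT2 cells (7.11-fold lower, log2 fold change -2.78 ± 0.43, SE, limma adjusted p = 0.0465). Cd74, the invariant chain that occupies the peptide groove, had 5418 and 7640 against 16727 and 24454 (3.15-fold lower, adjusted p = 0.0378). Among the parted genes, H2-Aa, an alpha chain, had 683 and 827 against 2584 and 4327 (adjusted p = 0.496), and H2-Eb1, a beta chain, had 297 and 603 against 1269 and 2159 (adjusted p = 0.21). H2-DMa, which helps load peptides, had 84 and 31 against 199 and 500 (limma adjusted p = 0.361). The Club samples also enter the spread of the test. They had 0 and 17 for H2-Aa, 0 and 0 for H2-Eb1 and 4 and 33 for H2-DMa. The 3 subunit genes of RFX, the factor that binds class II promoters, had overlapping groups, with Rfx5, named after its values were seen, at 323 and 479 in BASC and 436 and 400 in AT2 cells. Both class II calls were lost without any 1 of the 4 BASC and AT2 samples, while the median stayed between -1.89 and -1.22.

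Class II promoters are known for a shared module in which RFX, CREB family factors and NF-Y sit beside each other and recruit Ciita. The 250 bases before the start of H2-Aa and H2-Eb1 (RefSeq, GRCm38.p6) are shown because both were parted lower, without a call, and Ciita acts at class II promoters. Capitals mark matches, on either strand, to the NF-Y motif ATTGG and to the CREB motif TGACGTCA.
H2-Aa, minus strand, chr17:34287824-34288073: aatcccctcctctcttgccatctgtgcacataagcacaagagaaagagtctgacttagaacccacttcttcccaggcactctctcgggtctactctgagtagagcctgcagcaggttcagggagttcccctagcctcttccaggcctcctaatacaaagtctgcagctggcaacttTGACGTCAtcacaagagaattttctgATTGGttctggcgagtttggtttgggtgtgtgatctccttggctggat
H2-Eb1, plus strand, chr17:34305617-34305866: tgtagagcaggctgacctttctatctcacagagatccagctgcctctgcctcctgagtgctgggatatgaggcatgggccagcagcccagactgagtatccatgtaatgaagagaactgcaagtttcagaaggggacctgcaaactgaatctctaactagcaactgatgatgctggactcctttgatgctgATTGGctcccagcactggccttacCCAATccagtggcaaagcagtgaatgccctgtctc
H2-Aa held 1 match to each motif, and H2-Eb1 held 2 to the first and 0 to the second. Among the 11140 genes tested that had such a sequence, 35.6% held ATTGG and 2.68% held TGACGTCA, of the 65 genes called higher with a sequence 32.3% and 1.54% did, and of the 8 genes called lower with one 37.5% and 0% did. A match describes letters in this window and is not a binding site.

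MHC class I genes gave 1 call. H2-D1, a classical class I heavy chain, had 3960 and 3471 in BASC against 6459 and 6729 in AT2 cells (1.78-fold lower, adjusted p = 0.0398). Of 20 class I genes, 10 lay lower and 2 higher without overlap, beside 18.9% and 18.3% of all genes. Their median log2 fold change was -0.47, and reads of these paralogs can be shared. Interferon response genes, which share regulators with both classes, gave no call among 37 (limma, 2 higher and 1 lower at an unadjusted p under 0.05) and a median of 0.23. The deposited annotation's term for antigen processing and presentation, counted over the same calls, held 3 genes lower and 0 higher of 51. That was 5.88%, beside 0.079% of all genes called lower.

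The other genes called lower had varied roles. Itih4, an acute phase protein of the inter-alpha-trypsin inhibitor family, stood at 1377 and 1682 in BASC, at 8474 and 10524 in AT2 cells and at 16 and 26 in Club cells (6.21-fold lower than AT2, adjusted p = 0.0103). Heatr1, a factor of ribosome assembly, had 765 and 897 against 3243 and 2734 (3.60-fold lower, log2 fold change -1.84 ± 0.17, SE, limma adjusted p = 0.00592), and was the only one of 40 ribosome biogenesis genes called. Bicc1, an RNA-binding regulator of translation, had 251 and 188 against 1410 and 1098 (5.71-fold lower, adjusted p = 0.0141). Mme, the surface peptidase neprilysin, had 5915 and 5202 against 11764 and 10878 (2.04-fold lower, adjusted p = 0.0208). Sgpp2, a phosphatase of sphingosine 1-phosphate, had 1080 and 817 against 2897 and 3419 (3.33-fold lower, adjusted p = 0.0254). It was the only call among 46 genes of fatty acid and phospholipid synthesis, whose median was -0.14. In 11 of the 14 lower genes both BASC samples lay above both Club samples, and in the case of Trappc13 and Slc6a6 both lay below both Club samples. Trappc13 stood at 238 and 245 with 699 and 599 in AT2 cells and 461 and 487 in Club cells.

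**Figure D5:**
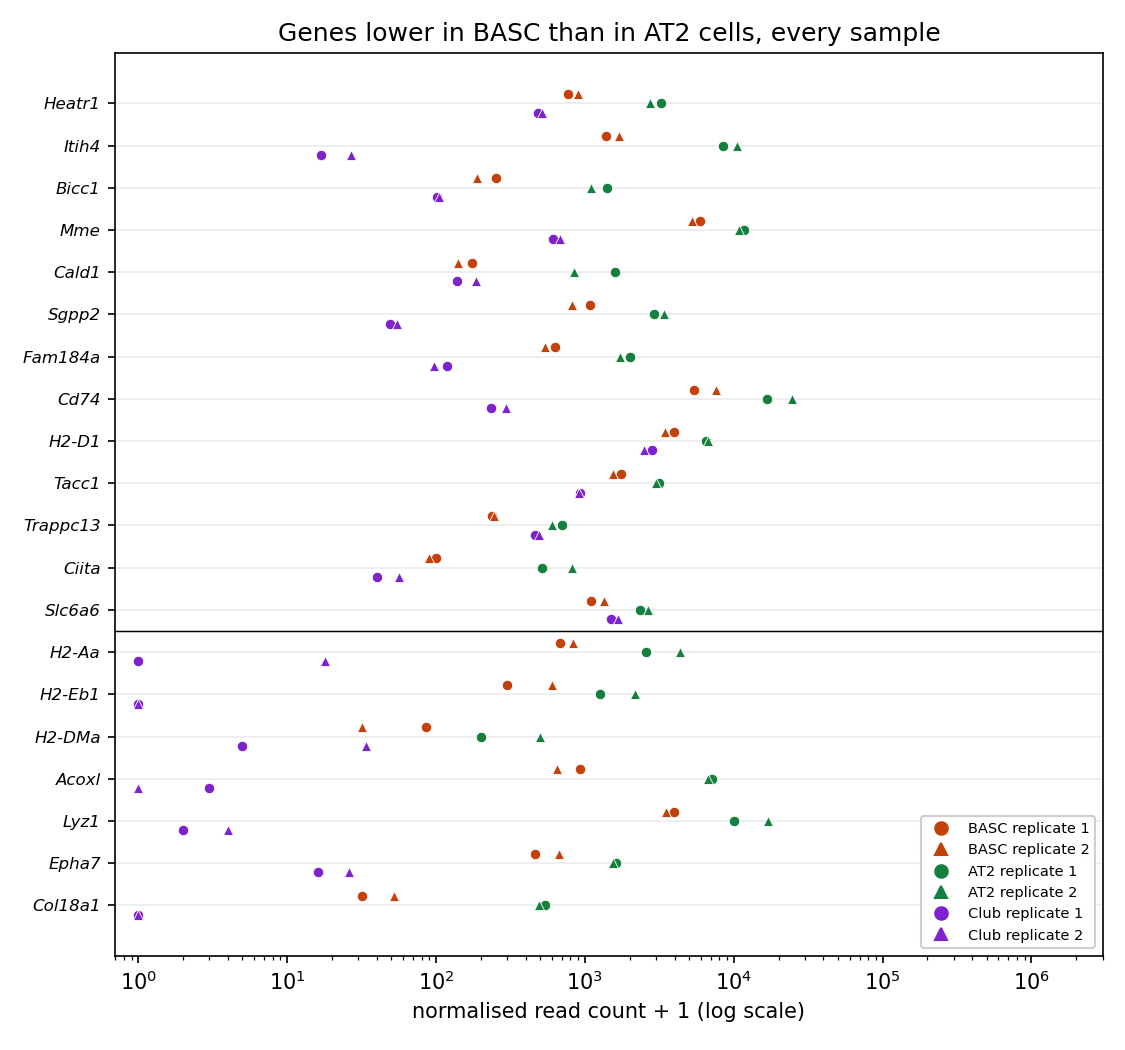
Normalised read count plus 1 (log scale) of 13 of the 14 genes called lower in BASC (above the line) and 7 that were parted without a call (below it), with a point for each of the 6 samples. The BASC points lie below the AT2 points in every row, and for 10 of the 13 called genes the Club points lie lower still.

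Collagen genes gave no call in either direction. Of 32 tested limma called none (4 higher and 7 lower at an unadjusted p under 0.05), 3 were parted lower and 2 higher. Col18a1, a basement membrane collagen, had 31 and 51 in BASC against 535 and 490 in AT2 cells (limma adjusted p = 0.133). It was at 0 in both Club samples, which also enter the spread. Col4a1 and Col4a2, the paired chains of collagen IV, had 5850 and 6476 against 9076 and 10611 and 5432 and 5188 against 8812 and 8847, without overlap (adjusted p = 0.209 and 0.291). Col4a6, another collagen IV chain, lay on the higher side, at 189 and 170 against 0 and 10 (adjusted p = 0.0735). The median of the collagens was -0.23, and 0.03 without AT2 replicate 1, where limma called 2 higher and 0 lower.

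Several genes of high level in AT2 cells were parted lower without a call. Acoxl, named for its likeness to acyl-CoA oxidase, had 930 and 653 in BASC against 7110 and 6704 in AT2 cells (adjusted p = 0.0627). Lyz1, the lysozyme mostly known from Paneth cells, had 3947 and 3524 against 10035 and 16981 (adjusted p = 0.112), and Epha7, an ephrin receptor, had 462 and 667 against 1614 and 1546 (adjusted p = 0.133). Lyz2, the lysozyme common in AT2 cells, had 254508 and 262419 against 178232 and 179734, with both BASC values above both AT2 values (adjusted p = 0.539), and reads of Lyz1 and Lyz2 can be shared. Cholesterol synthesis genes had a median of -0.41 with 8 of 24 lower and 1 higher without overlap (18.9% and 18.3% of all genes). None was called by limma (1 higher and 3 lower at an unadjusted p under 0.05). The median was -0.14 without BASC replicate 2 and -0.15 without AT2 replicate 1.

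Several other groups gave no call, which does not show that they were equal. Among 76 ribosomal protein genes limma called none (0 higher and 2 lower at an unadjusted p under 0.05), with a median of -0.04. The respiratory chain gave none of 38 (1 higher and 2 lower) with a median of -0.02, and the heat shock and unfolded protein response genes none of 39 (1 and 1) with -0.04. The Hippo pathway gave none of 23 (0 and 2) with -0.08. The Wnt pathway gave none of 39 (3 and 6) with a median of -0.20, and 5 of its genes lay higher and 13 lower without overlap, beside 18.3% and 18.9% of all genes. Of 332 zinc finger Zfp genes, with a median of -0.06, Zfp521 alone was called, at 92 and 158 in BASC and 2 and 0 in AT2 cells.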

How the data were processed

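RNA of 2 BASC, 2 AT2 and 2 Club samples, sorted by fluorescence from lung homogenates of mice aged 8 weeks, was sequenced as total RNA from 100 pg with a stranded low-input kit, per the labels' protocols. The authors used FastQC, STAR 2.4.0a and featureCounts 1.4.5-p1 with the mm10/GRCm38 build, per the submitters' processing notes. The deposited table holds normalised read counts rounded to whole numbers, treated here as a score since the normalisation method is not given in the sources used here. Strand setting and annotation release are not given there either. Because the values are not raw counts, limma 3.58.1 in R 4.3.3 was fitted to log2(value + 1) over all 6 samples. The fit had a trended prior, and Benjamini-Hochberg adjustment ran over 17721 genes. Its p-values thus reflect the spread within all groups and the mean level over the 6 samples, not the BASC and AT2 samples alone. The fit was tested on simulated data with 50 genes changed in BASC at each fold. Of these it called 1 at 2-fold, 6 at 4-fold, 28 at 8-fold and 41 at 16-fold, with 0 false calls. Genes without a call can thus differ by several fold. With 2 samples a group an exact permutation test cannot reach 0.05. A fold is the ratio of the 2 group means, and the log2 fold change understates it for low genes. Where AT2 cells were at 0, the fold was set against the mean of 3 reads per sample, 2.75, and depth was estimated from the steps between low values. Such bounds cover counting error only. Genes were named if called, if parted, as up to 4 members of each list, or, where stated, after their values were seen. The comparison and the lists were chosen with earlier results of these data known. Other pseudocounts, filters, scalings, sample sets and a replicate block were tried. A few genes are not reported here.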

Additional observations from a re-analysis of the deposited data

How the results depend on the processing

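The count of genes called higher moved most with the samples used and with the filter on low values. It was 98 as reported, 204 with a minimum of 50 in at least 2 of 6 samples, and 60 in a fit of the 4 samples alone. Leaving out 1 sample at a time gave 3 to 100 genes higher and 0 to 27 lower. The 14 genes lower became 25 with a pseudocount of 5, 61 with the minimum of 50, 34 without a trend of the spread and 45 with the 4 samples alone. Leaving out 1 BASC or AT2 sample gave 414 to 525 genes parted upward and 365 to 479 parted downward, since a rule on 3 samples is easier to meet. With quantile normalization or equal totals the higher counts were 126 and 111. The cause of the moves was not tested.

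The labels do not say that a replicate number marks a shared animal or batch. Deviations of same-numbered samples from their group means correlated at 0.01 in each pairing of groups over 17721 genes. Over the 2220 genes with a mean of at least 1000 the correlations were 0.07 for BASC and AT2, 0.17 for BASC and Club, and 0.13 for AT2 and Club, so the samples were not treated as paired. With a replicate block 102 genes were called higher and 18 lower.

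Some differences near 0, none of them called, changed sign. Under quantile normalization the log2 fold change was 0.17 for Sftpc, 0.00 for Nkx2-1 and 0.03 for Rbm47, and with equal totals 0.05 for Rbm47. Leaving out 1 sample at a time gave -0.14 to 0.01 for Nkx2-1, -1.15 to 0.10 for Pecam1, -0.15 to 0.14 for Rbm47, -0.29 to 0.82 for Ret, -0.37 to 0.20 for Rfx5 and -0.19 to 0.26 for Scnn1g. Depth limits the genes at 0 in AT2 cells, whose folds are lower bounds.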
